A study of Homo sapiens with 3 samples.

Results

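The cytosolic ribosomal protein genes encode the protein subunits of the ribosomes that translate nuclear transcripts. They were taken as the probe sets whose single gene symbol was RPL or RPS followed by a number, with a letter suffix A, L or X or none, or was RPLP0, RPLP1, RPLP2 or RPSA. Pseudogenes, S6 kinase genes, the RPS4Y genes and antisense names were left out. The rule found 117 of 54613 probe sets, which stood for 56 of 19775 named genes. Of these genes, 55 were among the 13296 that passed the filter on dim signals, and RPL3L did not pass it. The arrays came from KMS11 cells, a single established human myeloma line with the t(4;14) translocation, which brings immunoglobulin enhancers next to MMSET, now named NSD2, the gene of a histone methyltransferase. The shMMSET#2 and shMMSET#4 groups each received a lentivirus with 1 of 2 hairpins that target MMSET, and the shLuc group received a hairpin against luciferase, which human cells lack. All 3 groups shared the same cell line, lentiviral infection with polybrene and collection at 48 h, and each had 1 array. Because no group had a replicate, the differences carry neither an error nor a p-value, and the words lower and higher speak of these arrays alone. Both hairpins were set against the same shLuc array, so the ratios with shMMSET#2 and shMMSET#4 are not independent of each other.

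Each ribosome contains 1 copy of nearly every ribosomal protein, apart from the acidic proteins of the stalk, so the cell needs these subunits in matched amounts. Ribosomal protein transcripts are among the most abundant of a dividing cell, and most begin with a 5′ terminal oligopyrimidine tract, through which the mTOR pathway and LARP1 control their translation. Myeloma cells make and secrete much protein, and subunits left free of ribosomes, above all RPL5 and RPL11 with the 5S ribosomal RNA, can bind MDM2 and stabilise p53.

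The start sites are printed for the members on which the results turn, to show the tract that nearly all of them share. Each line gives the 15 bases before and the 15 bases from an annotated start, from RefSeq on GRCh38.p14. Where a gene had several starts, the one with a tract nearest to it was printed, so the lines were chosen for the tract. Capitals mark the tract, here a C followed by at least 4 C or T that begins within 10 bases of the start on the transcribed strand. Where several stretches met this rule, only the one that begins nearest to the start was marked.
RPS21, chr20:62387088-62387117, plus strand: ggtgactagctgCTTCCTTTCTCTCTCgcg
RPS15, chr19:1438381-1438410, plus strand: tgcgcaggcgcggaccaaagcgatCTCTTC
RPL31, chr2:101002274-101002303, plus strand: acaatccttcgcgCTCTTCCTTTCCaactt
RPL35A, chr3:197950175-197950204, plus strand: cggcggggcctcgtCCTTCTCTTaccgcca
RPL12, chr9:127451392-127451421, minus strand: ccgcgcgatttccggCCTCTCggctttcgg
RPL18, chr19:48619164-48619193, minus strand: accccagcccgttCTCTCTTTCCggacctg
RPS23, chr5:82278340-82278369, minus strand: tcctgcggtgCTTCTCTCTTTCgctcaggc
RPS27, chr1:153990747-153990776, plus strand: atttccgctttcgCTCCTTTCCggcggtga
RPS27L, chr15:63157463-63157492, minus strand: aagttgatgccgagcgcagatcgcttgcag
RPL10L, chr14:46651767-46651796, minus strand: caggcgtagttaagagagcgcattttgact
The tract of RPS21, the member that was higher with both hairpins, was the longest of these at 15 bases. That of RPS15, the ubiquitous member that was lowest with shMMSET#2, began 10 bases into the transcript and ran past the end of the window. The variant paralogs RPS27L and RPL10L had none in these windows. A gene was counted for a tract, or for the letters searched below, when any of its annotated promoters held it. A tract was found for 42 of the 48 members with a promoter in the RefSeq table (87.5%), against 36.4% of all 27305 genes with one. The 6 without it were RPL10L, RPL27, RPL6, RPS27L, RPS29 and RPS4X. Their median log2 ratio over shLuc was -0.56 with shMMSET#2 and -0.55 with shMMSET#4. The 42 members with a tract had medians of -0.58 and -0.59 with these hairpins in turn. The promoter window of 300 bases, searched on both strands, held CCGGAAG, a core of ETS family sites such as those of GABPA, in 37.5% of the 48 members and in 12.2% of all genes. It held GCCATNTT, the core of YY1 sites, in 16.7% of members and in 7.97% of all genes. The letters GGGCGG of SP1 sites were in 58.3% of members and in 48.3% of all genes, and TATAAA was in 8.33% of members and in 14.0% of all genes.

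The deposited signals had a common scale, with a 2% trimmed mean of 500.1 on every array, but their upper ends differed. The 99th percentile was 14764, 15311 and 15325 on the shMMSET#2, shMMSET#4 and shLuc arrays, and the brightest 0.1% of probe sets began at 40953, 40108 and 57745 on these arrays. NSD2, the targeted gene, had 6 probe sets, of which 6 were below shLuc with shMMSET#2 (median log2 ratio -1.33) and 5 with shMMSET#4 (median -0.48). With shMMSET#4 these probe sets ran between -1.62 and 0.05, and their median was less than 1.5-fold below shLuc. The brightest had log2 ratios of -0.55 with shMMSET#2 and -0.46 with shMMSET#4. The ACTB control had a log2 ratio of 3′ to 5′ signal, a sign of RNA or labelling quality, of 1.14, 1.14 and 1.70 on the arrays in that order. For GAPDH the same ratio was 0.10, 0.00 and 0.04, and the part of the ACTB difference in the results was not tested. All 11 plasma cell markers were measured, with summed signals of 79645, 115286 and 132106 on the arrays in that order. JCHAIN was the largest part of each sum, with 40928, 39387 and 55012. With shMMSET#2, 7 markers were at least 1.5-fold lower and none higher, against 22.5% and 16.2% of all genes. With shMMSET#4, 2 were lower and 2 higher, against 20.6% and 17.3% of all genes. T cell, myeloid, erythroid and fibroblast markers had summed signals between 140 and 930 on every array. Epithelial markers summed to 4822, 11569 and 9129, most of it EPCAM, and these marker differences were not tested for a part in the results either. In bulk RNA, fewer cells of a type and less RNA per cell cannot be told apart.

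On these arrays most ribosomal protein genes were bright. A mean signal of at least 10000 was reached by 49 of the 56 genes, 20 of the small and 29 of the large subunit. These signals ran between 12848 and 48999 with shMMSET#2, between 18970 and 47847 with shMMSET#4, and between 22175 and 72828 with shLuc. Among all probe sets of each array, the 49 genes ranked between 8 and 653 with shMMSET#2, between 6 and 412 with shMMSET#4, and between 7 and 362 with shLuc. The ranks describe brightness on the array, since probe sets differ in how well they hybridise. The 117 member probe sets together held 4.82% of the summed signal with shMMSET#2 and 4.99% with shMMSET#4, against 6.86% with shLuc.

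The highest signal of any probe set was 55495 with shMMSET#2 and 51377 with shMMSET#4, against 77117 with shLuc. The brightest members came close to it: RPS23, near the decoding centre of the small subunit, had 45894 and 47529 with shMMSET#2 and shMMSET#4, against 72828 with shLuc. Signals near such a ceiling can be compressed by saturation of the scanner or of the probes, and the deposited signals carry no flag for it, so saturation of the members was not tested. The 22 members with a mean signal of at least 40000 had log2 ratios with interquartile ranges of 0.09 with shMMSET#2 and 0.06 with shMMSET#4. Over the 27 members between 10000 and 40000, the interquartile ranges were 0.32 and 0.14 with these hairpins in turn. The brightest members thus had the closest ratios.

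**Figure D1:**
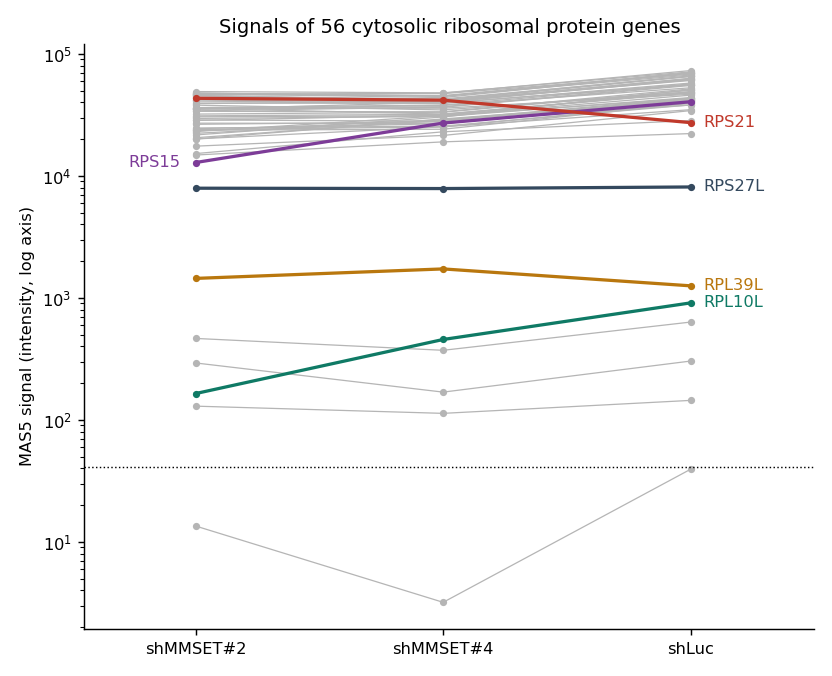
Deposited MAS5 signal (log axis) of the 56 genes on the shMMSET#2, shMMSET#4 and shLuc arrays, with 1 point per gene and array, a line per gene and the floor of 41.2 dotted. The 49 bright genes lie in a band above 10000 that is higher on the shLuc array, except RPS21, which is lower there.

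With the deposited scaling, the ribosomal protein genes were lower with both hairpins by nearly the same amount. The median log2 ratio of the 55 genes was -0.58 with shMMSET#2 and -0.58 with shMMSET#4, against -0.04 and -0.02 over all 13296 genes. The log2 ratio was below 0 with both hairpins for 53 of the 55, against 5168 of all 13296 genes. RPS21 and RPL39L were above 0 with both. At 1.5-fold, 17 of the 55 (30.9%) were lower with both hairpins, against 11.9% of all genes. These 17 were RPS4X, RPS6, RPS9, RPS14, RPS18, RPS23 and RPS28 of the small subunit and RPL6, RPL10L, RPL12, RPL19, RPL23A, RPL31, RPL32, RPL34, RPL35A and RPL37A of the large subunit. With shMMSET#2 alone, 27 were at least 1.5-fold lower, against 22.5% of all genes. With shMMSET#4 alone, 27 were at least 1.5-fold lower, against 20.6% of all genes. RPS21 was the single member at least 1.5-fold higher with both, where 8.6% of all genes were. It was also the single one that much higher with shMMSET#2 (16.2% of all genes) and with shMMSET#4 (17.3% of all genes).

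The 1.5-fold threshold, a log2 ratio of 0.58, ran through the middle of the members. Within 0.1 of it lay 10 genes just inside and 17 just outside with shMMSET#2. With shMMSET#4, 22 genes lay just inside and 17 just outside. The counts of 1.5-fold calls therefore moved with small shifts in scale. At a looser threshold, a log2 ratio of 0.32, 48 members were lower with both hairpins, where 21% of all genes were. At 2-fold no member was, where 4.35% of all genes were. The list median was below 0 with both hairpins under each scaling tried except centring on the polyadenylated controls, transcripts added before labelling, where it was -0.69 with shMMSET#2 and 0.017 with shMMSET#4, and its size varied. It was -0.26 and -0.20 (shMMSET#2 and shMMSET#4 over shLuc) after scaling to the same median signal, which itself moved the median of all genes to 0.25 and 0.34. After quantile normalization it was -0.12 and -0.10, with the median of all genes at 0.01 and 0.04. The split of 17 members lower and 1 higher at 1.5-fold with both hairpins was 1 lower and 1 higher under either of these scalings. Of all genes, 5.27% were lower and 19.6% higher with both after median scaling, and 8.79% and 10.8% after quantile normalization. Under these 2 scalings the members were thus lower with both less often than all genes. Below 0 with both hairpins were 47 of the 55 genes under the median scaling and 40 under quantile normalization. The genes above 0 with both under quantile normalization were RPL27, RPL39L, RPLP1, RPS16, RPS21, RPS29 and RPS7.

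**Figure D2:**
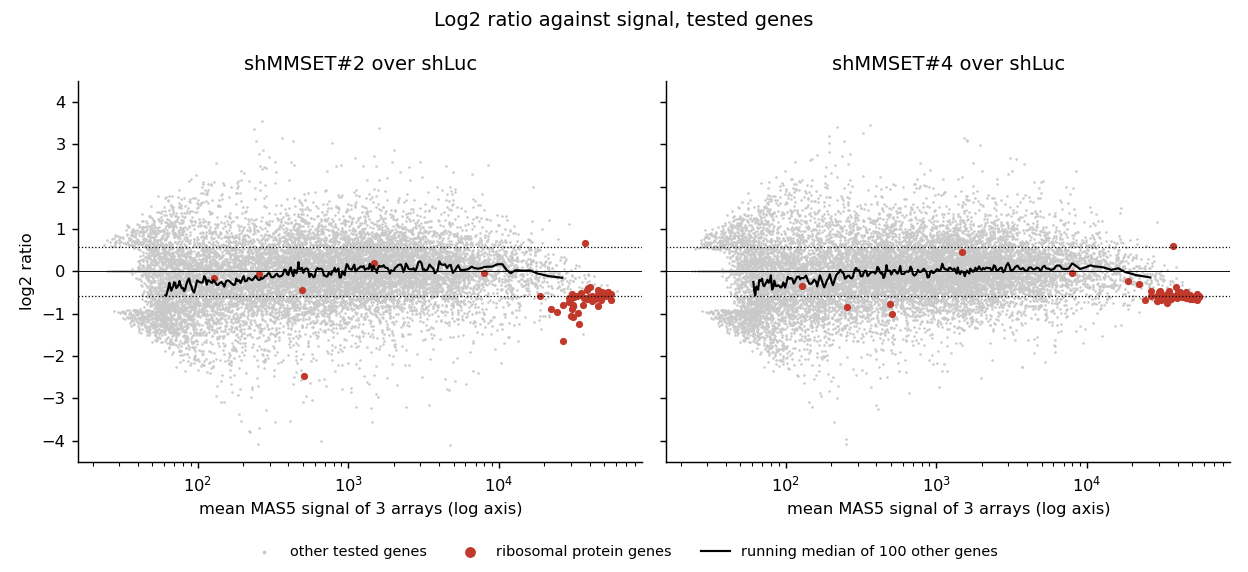
Log2 ratio to shLuc (vertical) against the mean signal of the 3 arrays (log axis) for all tested genes with shMMSET#2 (left) and shMMSET#4 (right), with the members in red, other genes in grey, the running median of 100 other genes as a line and 1.5-fold dotted. The red points sit at the right end, mostly near a log2 ratio of -0.58 and below the line, and 1 grey gene lies outside the axis with shMMSET#4.

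In the small subunit, the 21 genes had median log2 ratios of -0.60 with shMMSET#2 and -0.59 with shMMSET#4. Of these, 7 lay at least 1.5-fold below shLuc with both hairpins and 1 above it. RPS15, whose tail reaches the decoding site, had a signal of 12848 with shMMSET#2 and 27052 with shMMSET#4, against 40444 with shLuc. It was by far the lowest ubiquitous member with shMMSET#2, at 3.15-fold below shLuc, and lay close to the other genes with shMMSET#4 (log2 ratio -0.58). RPS25, which is required for initiation on several viral internal ribosome entry sites, had 22289 and 28284 with shMMSET#2 and shMMSET#4, against 41527 with shLuc. It lay 1.86-fold (shMMSET#2) and 1.47-fold (shMMSET#4) below shLuc.

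RPS9, whose bacterial counterpart is a primary binder of the small subunit RNA, had 23654 with shMMSET#2 and 24076 with shMMSET#4, against 39345 with shLuc. Its distance from shLuc was nearly equal with the hairpins, at 1.66-fold and 1.63-fold lower. RPS6, the substrate of the S6 kinases, had 35105 and 40081 with shMMSET#2 and shMMSET#4, against 61702 with shLuc, which was 1.76-fold and 1.54-fold lower. RPS4X, encoded on the X chromosome, had 39011 and 40962 with the same hairpins, against 62438 with shLuc, which was 1.60-fold and 1.52-fold lower. All these genes had their highest signal on the shLuc array.

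RPS21, a small subunit protein of eukaryotes without a bacterial counterpart, had the opposite order. Its signal was 43165 with shMMSET#2 and 41669 with shMMSET#4, against 27267 with shLuc. It was 1.58-fold and 1.53-fold higher with these hairpins. Its rank among all probe sets was 39 and 41 with shMMSET#2 and shMMSET#4, against 291 with shLuc. A dimmer RPS21 probe set had 2522 and 1692 with shMMSET#2 and shMMSET#4, against 498 with shLuc, which were log2 ratios of 2.34 and 1.77. Both probe sets of RPS21 thus pointed the same way, and the gene kept this direction under every setting tried.

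RPS7, which can bind MDM2, had 35536 and 35795 with shMMSET#2 and shMMSET#4, against 46583 with shLuc, which was 1.31-fold and 1.30-fold lower. It had the smallest mean distance from shLuc of the bright small subunit genes that were lower. RPS29 followed it, at 1.28-fold and 1.40-fold lower, and both genes lay above shLuc with both hairpins under quantile normalization. The other bright small subunit genes had log2 ratios between -0.80 and -0.43 with shMMSET#2 and between -0.68 and -0.47 with shMMSET#4.

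In the large subunit, the 34 genes had median log2 ratios of -0.58 with shMMSET#2 and -0.57 with shMMSET#4, and 10 lay at least 1.5-fold below shLuc with both hairpins and none above it. RPL31, a protein near the exit of the peptide tunnel, had a signal of 21620 with shMMSET#2 and 30343 with shMMSET#4, against 50888 with shLuc. It lay 2.35-fold (shMMSET#2) and 1.68-fold (shMMSET#4) below shLuc, the largest distance of any bright member with shMMSET#4. RPL35A, a Diamond-Blackfan anaemia gene, had 20512 and 28763 with shMMSET#2 and shMMSET#4, against 43367 with shLuc, or 2.11-fold and 1.51-fold lower. For both genes the shMMSET#2 array was the lowest and the shLuc array the highest.

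RPL12, at the base of the stalk, had 17494 and 21417 with shMMSET#2 and shMMSET#4, against 34214 with shLuc. It was 1.96-fold and 1.60-fold lower. RPL18, a structural protein of the large subunit, had 23044 and 31098 with these hairpins, against 45791 with shLuc, or 1.99-fold and 1.47-fold lower. RPL3, which reaches the peptidyl transferase centre, had 20013 and 29252 with these hairpins, against 41264 with shLuc. It lay 2.06-fold (shMMSET#2) and 1.41-fold (shMMSET#4) below shLuc. These genes had the order of RPL31 and RPL35A, with shMMSET#2 below shMMSET#4.

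RPL36 had the smallest distance from shLuc of the bright large subunit genes with shMMSET#4, with 14794 and 18970 with shMMSET#2 and shMMSET#4, against 22175 with shLuc. Its log2 ratio was -0.58 with shMMSET#2 and -0.23 with shMMSET#4. RPL11, the MDM2-binding partner of RPL5, had 29516 and 30609 with these hairpins, against 43785 with shLuc, or 1.48-fold and 1.43-fold lower. RPL5 had probe sets with several symbols and was not counted.

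**Figure D3:**
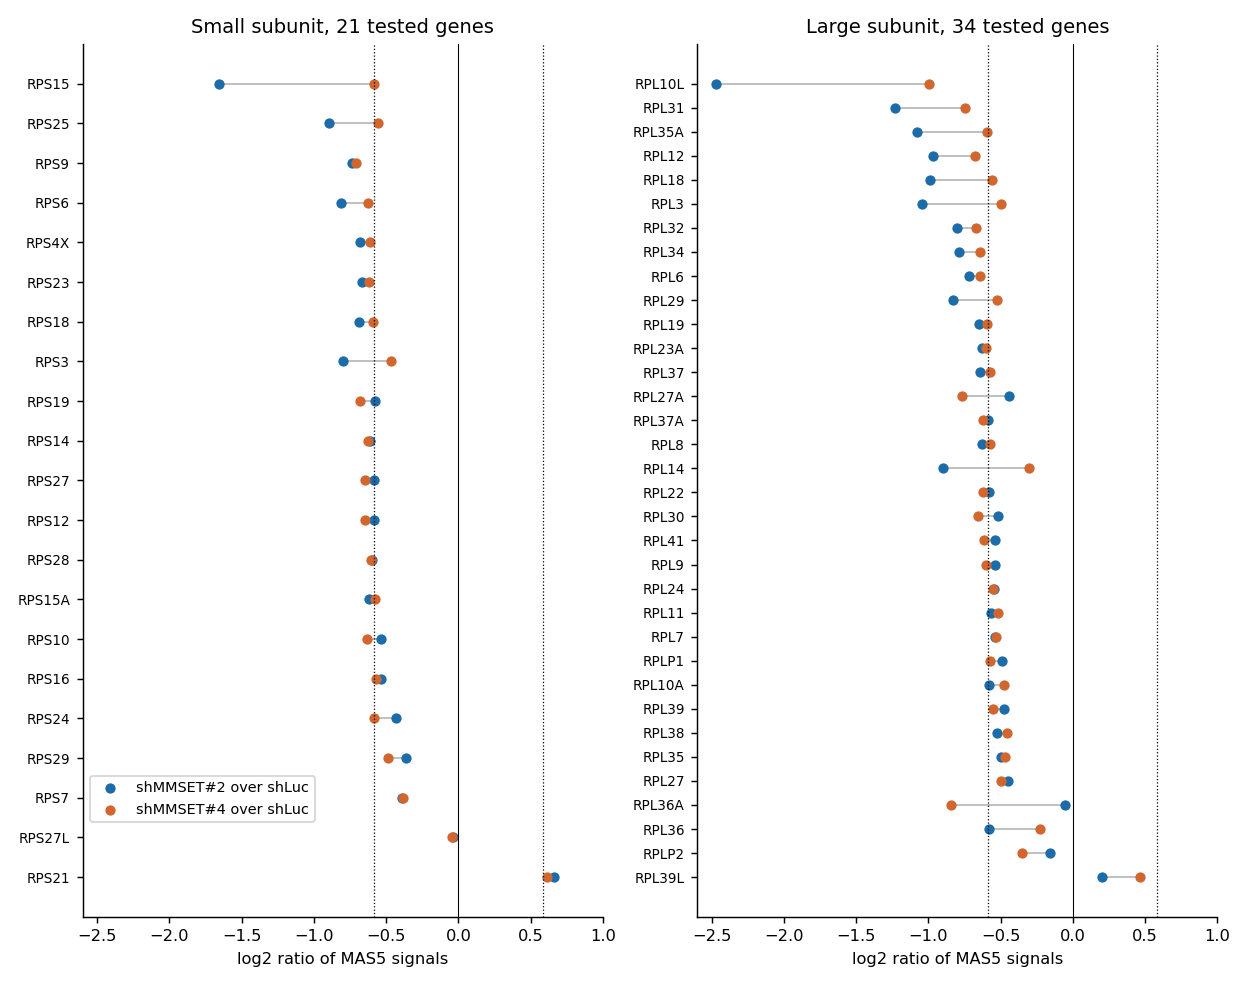
Log2 ratio to shLuc of the 21 small subunit genes (left) and 34 large subunit genes (right), with blue points for shMMSET#2, orange points for shMMSET#4, 1.5-fold dotted and genes ordered by the mean of both ratios. Most orange points lie near -0.58, the blue points spread further below it at the top, and RPS21 is the single gene beyond 1.5-fold on the right.

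The shares of calls below stand beside 11.9% of all genes lower with both hairpins. Of the 14 measured Diamond-Blackfan anaemia genes, in which variants cause a failure of red cell production, 3 were lower by at least 1.5-fold with both, with medians of -0.57 and -0.58 (shMMSET#2 and shMMSET#4). Of the 9 measured genes whose introns encode small nucleolar RNAs, 3 were lower with both, with medians of -0.64 and -0.60. Of the 6 measured subunits of the 5S particle or with MDM2 binding, 1 was lower with both, with medians of -0.58 and -0.49. No member of these 3 groups was 1.5-fold lower with both under median scaling, quantile normalization or centring on either kind of added control. Nor was any when centred on neighbouring signals. Under these settings between 3.87% and 9.36% of all genes were. With shMMSET#4 the median of the 5S group was 0.047 when centred on the hybridisation controls and 0.11 when centred on the polyadenylated ones. The 2 measured genes of the stalk had medians of -0.33 and -0.46, which average RPLP1 with a dim probe set of RPLP2 (log2 ratios -0.16 and -0.35). RPLP1 alone was at -0.49 and -0.57, against -0.58 and -0.58 of all members. Centring on either kind of added control or quantile normalization put at least 1 of the 2 stalk medians above 0. In the stalk, which recruits elongation factors, RPLP1 had 47582 and 45076 with shMMSET#2 and shMMSET#4, against 66992 with shLuc, or 1.41-fold and 1.49-fold lower, although it lay above shLuc with both under quantile normalization. RPLP2, its partner, was represented by a dim probe set with 130, 113 and 144 on the shMMSET#2, shMMSET#4 and shLuc arrays. RPLP0 was not named by a single symbol on any probe set and was not counted.

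Of the paralogs that can stand in for a ubiquitous subunit, RPS27L and RPL39L were not 1.5-fold from shLuc and RPL10L was lower with both hairpins. RPS27L, a p53 target gene, had 7912 with shMMSET#2 and 7860 with shMMSET#4, against 8099 with shLuc. It differed from shLuc by 1.02-fold and 1.03-fold, and lay above shLuc with both hairpins after median scaling. Its parent RPS27 had 43935 and 41992 with the hairpins, against 65805 with shLuc, with log2 ratios of -0.58 and -0.65. RPL39L, best known from testis, had 1443 and 1725 with shMMSET#2 and shMMSET#4, against 1254 with shLuc, or 1.15-fold and 1.38-fold higher. Its parent RPL39, a small protein of the peptide tunnel wall, had 43429 and 41205 with the hairpins, against 60404 with shLuc, or 1.39-fold and 1.47-fold lower.

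RPL10L, the testis paralog of RPL10, had 164 with shMMSET#2 and 456 with shMMSET#4, against 909 with shLuc. It lay 5.53-fold (shMMSET#2) and 2.00-fold (shMMSET#4) below shLuc, at signals far below those of the ubiquitous members. RPL3L, the muscle paralog of RPL3, was at or under the floor of 41.2 on all arrays and has no ratio.

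Several probe sets of a gene could be compared within each array. They share the scale of that array and are not replicates, so they cannot check the scale. Of the 117 member probe sets, 69 had a mean signal of at least 10000, and 68 of these were below shLuc with both hairpins. In the 15 genes with more than 1 bright probe set, their log2 ratios spanned at most 0.26 with shMMSET#2 and 0.20 with shMMSET#4. The 48 dimmer probe sets were less even. At or under the floor on all arrays were 6 of them, and the other 42 had medians of -0.39 with shMMSET#2 and -0.53 with shMMSET#4. RPL37, a zinc-binding large subunit protein, had a dim probe set with 700 and 737 with shMMSET#2 and shMMSET#4, against 2825 with shLuc, which were log2 ratios of -2.01 and -1.94. Its bright probe set was 1.56-fold and 1.49-fold lower. A further 64 probe sets named several symbols of which 1 met the rule. The 46 bright ones had medians of -0.69 with shMMSET#2 and -0.58 with shMMSET#4. Ribosomal protein genes have many processed pseudogenes, and probe sets that match several transcripts can mix their signals.

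Set against each other, shMMSET#4 and shMMSET#2 gave similar levels for most members, with a median log2 ratio of 0.03 for shMMSET#4 over shMMSET#2. At least 1.5-fold higher with shMMSET#4 were 3 of the 55 members, against 16.9% of all genes. RPL10L was 2.77-fold higher with shMMSET#4, RPS15 was 2.11-fold higher and RPL14, a large subunit protein without a bacterial counterpart, was 1.51-fold higher. RPL14 had 22940 with shMMSET#4 and 15207 with shMMSET#2, and 28364 with shLuc. Its other bright probe set had a log2 ratio of shMMSET#4 over shMMSET#2 of 0.39, under 1.5-fold, and its dim one had -0.50. At least 1.5-fold lower with shMMSET#4 was 1 member, against 13.6% of all genes. It was RPL36A, a large subunit protein of the E site, with 169 with shMMSET#4, 293 with shMMSET#2 and 303 with shLuc. These values come from its only single-symbol probe set, which ranked between 15184 and 18567 and was far dimmer than the 49 bright members. The interquartile range of the log2 ratios of the 49 bright members was 0.25 with shMMSET#2 and 0.10 with shMMSET#4. Across these genes, which share their arrays and are not independent, the Spearman correlation of the log2 ratio with mean signal was 0.54 with shMMSET#2 and -0.23 with shMMSET#4. The dimmer of the bright members thus tended to have the lower ratios with shMMSET#2.

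The other genes of the highest signals were lower with both hairpins as well, whereas bright genes at large were not. The 500 other genes with a mean signal of at least 10000 had median log2 ratios of -0.07 with shMMSET#2 and -0.03 with shMMSET#4, and 216 of them were below 0 with both. The 22 members with a mean signal of at least 40000 had median log2 ratios of -0.56 with shMMSET#2 and -0.60 with shMMSET#4, and the 14 other genes of that brightness had medians of -0.46 and -0.54. COX2, a respiratory chain subunit encoded in mitochondrial DNA, was the brightest of these, with 55495 and 50066 with shMMSET#2 and shMMSET#4, against 76621 with shLuc. Between RPL36, the dimmest bright member, and 40000, the members and the others lay further apart. There the 27 members had medians of -0.72 with shMMSET#2 and -0.58 with shMMSET#4, and the 147 other genes had -0.15 and -0.15. Of the 500 other genes, 4% were lower with both hairpins at 1.5-fold. Each gene was also set against the 100 other genes nearest in signal. For the members with a mean signal of at least 40000 these neighbours were mostly dimmer genes, since 14 other genes were that bright. RPS21, RPL19, RPS24, RPS7 and RPS14, just under 40000, had the same neighbour medians as those members, -0.22 with shMMSET#2 and -0.25 with shMMSET#4. Of the 33 members under 40000, 29 were lower than their neighbours with both hairpins. The 27 between 10000 and 40000 had medians of -0.55 (shMMSET#2) and -0.36 (shMMSET#4) relative to them.

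Transcripts added to the samples gave further scales. The hybridisation controls, the bacterial bioB, bioC and bioD and the phage cre, were lower with both hairpins too. Over 18 probe sets their median log2 ratio was -0.30 with shMMSET#2 and -0.54 with shMMSET#4. The brightest, cre, averaged 42658 with shMMSET#2 and 37704 with shMMSET#4, against 57063 with shLuc. With the members centred on these controls, the list median was -0.29 with shMMSET#2 and -0.05 with shMMSET#4. The same centring put the median of all genes at 0.25 with shMMSET#2 and 0.52 with shMMSET#4. Below 0 with both hairpins were then 37 of the 55. No member lay 1.5-fold below shLuc with both, where 3.87% of all genes did. The polyadenylated controls, the bacterial dap, lys, phe and thr, which are added to RNA before labelling, differed between hairpins. Over 24 probe sets their median log2 ratio was 0.10 with shMMSET#2, with 10 of 24 below 0, and -0.60 with shMMSET#4, with 24 of 24 below 0. With the members centred on these, the list median was -0.69 with shMMSET#2 and 0.017 with shMMSET#4, and the shMMSET#4 medians were 0.011 for the small and 0.027 for the large subunit. At least 1.5-fold lower were then 44 of the 55 with shMMSET#2 and none with shMMSET#4, and 23 were below 0 with both. No member was 1.5-fold lower with both, where 4.55% of all genes were. The median of all genes was then -0.14 with shMMSET#2 and 0.58 with shMMSET#4. With shMMSET#4 the list median thus lay near 0 on both of these scales, against -0.58 on the deposited scaling. The part of the shifts of the added controls in the ratios of the members was not tested.

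**Figure D4:**
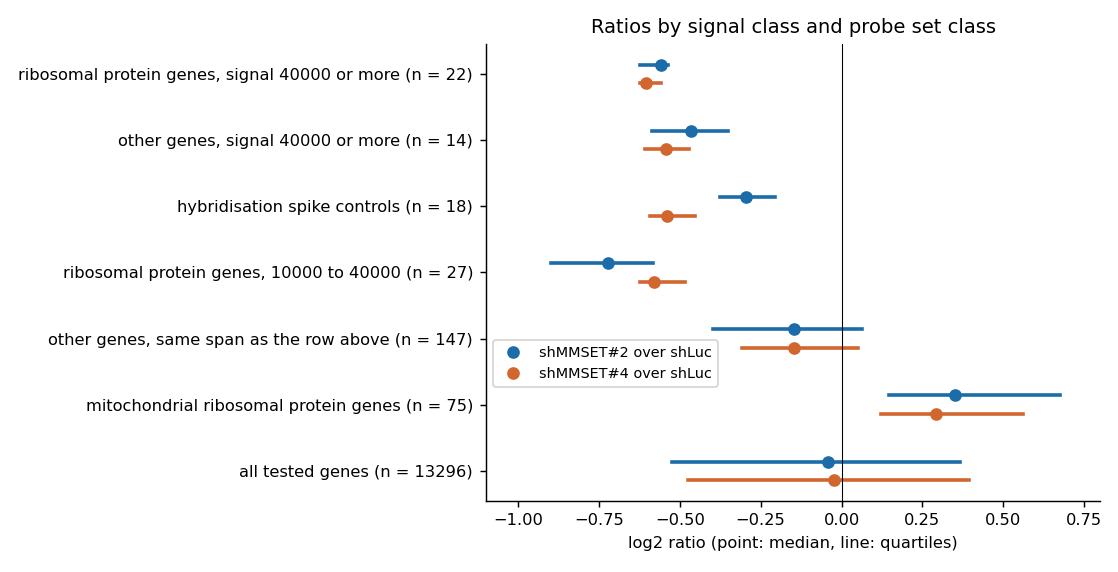
Median (point) and quartiles (line) of the log2 ratio to shLuc for members and other genes by mean signal, spike controls, mitochondrial ribosomal protein genes and all tested genes, in blue for shMMSET#2 and orange for shMMSET#4. Members, other genes at 40000 or more and spikes lie below 0 and the mitochondrial ribosomal protein genes above it, while the 147 other genes between RPL36 and 40000 lie near -0.15. These are values on the deposited scaling.

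**Figure D5:**
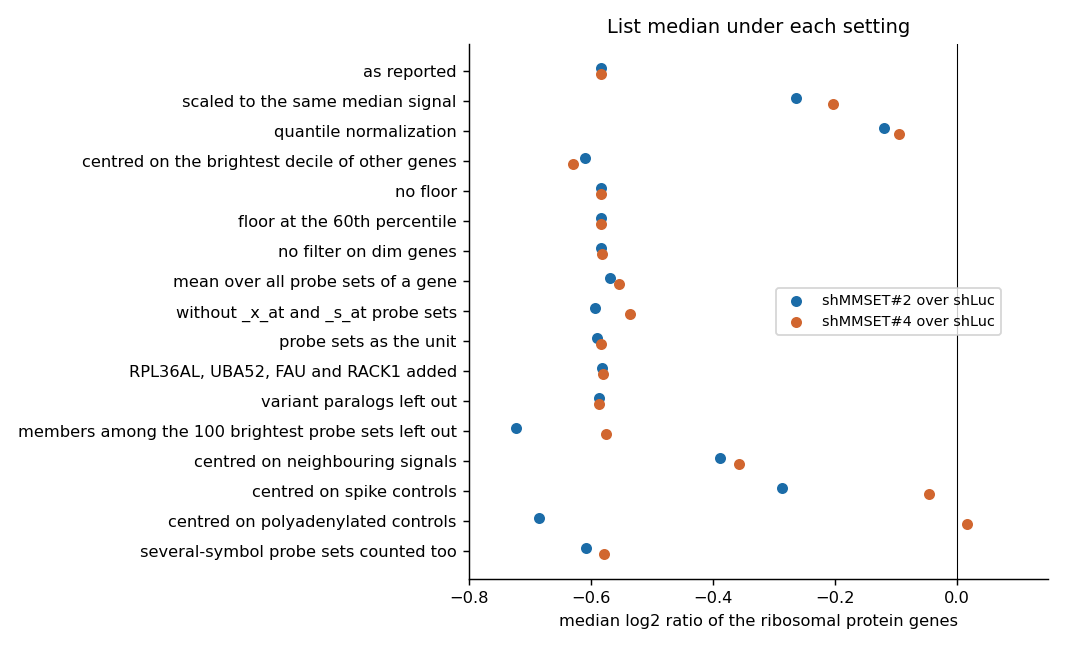
Median log2 ratio to shLuc of the ribosomal protein genes under each processing setting, in blue for shMMSET#2 and orange for shMMSET#4. All points are below 0 except shMMSET#4 centred on polyadenylated controls (0.017), and scaling to the median, quantile normalization and spike centring also lie near 0.

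Genes that share the translational control or the assembly of ribosomal proteins were counted beside them, at 1.5-fold with both hairpins. Of 21 measured other genes with a terminal oligopyrimidine tract, 6 were lower and none was higher, against 11.9% and 8.6% of all genes, with medians of -0.55 with shMMSET#2 and -0.46 with shMMSET#4. The medians were below 0 under the other scalings, except with shMMSET#4 at 0.075 when centred on hybridisation controls and 0.14 when centred on polyadenylated ones. After median scaling or centring on either kind of added control, no gene of this list was 1.5-fold lower with both. Of all genes, between 3.87% and 5.27% were under these settings. Under quantile normalization 4 of the 21 were lower with both, against 8.79% of all genes. Centred on neighbouring signals 6 were, against 9.36%, and centred on the brightest decile of other genes 7 were, against 12.9%. The translation initiation factor 3 subunits EIF3H, EIF3L and EIF3F were among the 6 lower on the deposited scaling. EIF3H was 1.93-fold (shMMSET#2) and 1.85-fold (shMMSET#4) lower, EIF3L 2.23-fold and 1.72-fold, and EIF3F 1.90-fold and 1.57-fold, each in that order of hairpins. The elongation factor subunit EEF1D was 1.55-fold and 1.65-fold lower with these hairpins. EIF3F pointed the other way with shMMSET#2 once probe sets ending in _x_at or _s_at were left out.

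Of 18 ribosomal protein chaperones, importers and loading factors, 3 were higher and none was lower, against 8.6% and 11.9% of all genes, with medians of 0.12 and 0.24 (shMMSET#2 and shMMSET#4). IPO7, which imports ribosomal proteins into the nucleus, was 1.58-fold and 2.46-fold higher. BRIX1 and MRTO4, assembly factors of the large subunit, were 1.58-fold and 1.56-fold higher with shMMSET#2 and 1.82-fold and 1.62-fold higher with shMMSET#4. Of 19 regulators of the translation or transcription of these genes, 2 were higher, a share near the 8.6% of all genes, and the medians were 0.01 and -0.02. These were RPS6KB2, an S6 kinase, and EIF4EBP2, a repressor of cap-dependent initiation, and no regulator was lower. Under the other scalings between 0 and 5 of the 18 and between 2 and 7 of the 19 were higher with both hairpins. The share of all genes there ran between 7.81% and 22%. The paralog RPL7L1, which lies outside the rule and whose yeast counterpart acts in ribosome assembly, had 8900 and 8450 with shMMSET#2 and shMMSET#4, against 2729 with shLuc. It was 3.26-fold and 3.10-fold higher.

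Of 5 measured p53 targets, 2 were higher with both hairpins, against 8.6% of all genes, and the list medians were 0.68 with shMMSET#2 and -0.01 with shMMSET#4. TP53I3, a quinone oxidoreductase, was 2.30-fold and 1.67-fold higher, and CDKN1A, a cell cycle inhibitor, was 1.67-fold and 1.88-fold higher. MDM2, the p53 ubiquitin ligase, had log2 ratios of 0.68 and -0.01, SESN1, a stress-response regulator of mTOR, had 0.00 and -0.92, and ZMAT3, an RNA-binding protein, had 0.26 and -0.45 (shMMSET#2 and shMMSET#4). The 75 measured genes for ribosomal proteins of mitochondria, which translate the mitochondrial genome, stood apart from their cytosolic counterparts. Of these, 16 lay at least 1.5-fold above shLuc with both hairpins (8.6% of all genes) and none below it, with median log2 ratios of 0.35 with shMMSET#2 and 0.29 with shMMSET#4. Those medians stayed above 0 under every scaling tried, down to 0.25 with shMMSET#2 when centred on polyadenylated controls and 0.25 with shMMSET#4 when centred on the brightest decile.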

How the data were processed

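Signals of 3 arrays of KMS11 RNA, 1 per group by their source labels, were analysed. The deposited values are linear intensity per probe set, made with MAS5 per the submitters' processing notes, and GeneSpring is named in the series' design text. Versions and settings are not given in the sources used here. Scaling by MAS5 takes most of the signal to be equal between arrays. Precision is limited by how few arrays there are. In the design text the array is an HG-U133 A, but the 54675 probe sets carry HG-U133 Plus 2.0 identifiers and were named through that platform's annotation, with 41037 symbols updated by Entrez identifier against RefSeq. The table has 62 control probe sets, and of the others 41091 had 1 symbol, 1801 had several and 11721 had none.

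Since 2% trimmed means were equal, nothing was rescaled. The floor was 41.2, percentile 40 of the pooled signals, and log2 values were used. The brightest probe set by mean stood for a gene, and genes above the array median on at least 1 array were tested by size. Counts used 1.5-fold. Named genes were the 5 lowest and 3 highest of each subunit, the 4 that differed most between hairpins, the stalk, the paralogs and their parents, RPL11, NSD2, and up to 4 genes of each pathway list. Other genes named were chosen after their values were seen. The members and lists were chosen with earlier results of these data known, and a few list members were dropped after the files were seen. Alternatives were other scalings, floors, filters, probe set rules, member rules and thresholds. Code was tested on simulated data, with matplotlib 3.10.9, scipy 1.17.1, pandas 2.3.3 and numpy 2.4.6 under Python 3.11.15.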

Additional observations from a re-analysis of the deposited data

How the results depend on the processing

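No paired analysis was possible because each group had 1 array and no test was made. Values below give shMMSET#2 before shMMSET#4, over shLuc. The settings centred on neighbouring signals, centred on spike (hybridisation) controls, centred on polyadenylated controls and with several-symbol probe sets counted were chosen after seeing the data. The list median was -0.26 and -0.20 with median scaling, -0.12 and -0.10 with quantile normalization, -0.39 and -0.36 centred on neighbouring signals, -0.29 and -0.046 centred on spike controls, -0.69 and 0.017 centred on polyadenylated controls, and -0.72 with shMMSET#2 without members among the 100 brightest probe sets. The median of shMMSET#4 over shMMSET#2 was 0.13 without those members 0.24 centred on spikes and 0.70 centred on polyadenylated controls. Small subunit medians were -0.28 and -0.21 (median scaling), -0.10 and -0.092 (quantile), -0.39 and -0.37 (neighbours), -0.30 and -0.052 (spikes), -0.70 and 0.011 (polyadenylated), and -0.73 with shMMSET#2 without the 100 brightest. Large subunit medians were -0.26 and -0.19, -0.12 and -0.10, -0.39 and -0.34, and -0.29 and -0.037 under the first 4 of these settings, and -0.68 and 0.027 centred on polyadenylated controls. Genes lower with both hairpins numbered 1 with median scaling, 1 with quantile normalization, 27 centred on the brightest decile of other genes, 7 of 28 without _x_at and _s_at probe sets, 35 of 107 with probe sets rather than genes as the unit, 8 without the 100 brightest, 1 by neighbours, 0 by spikes, 55 of 168 probe sets with several-symbol ones counted, 48 at the looser threshold (log2 0.32) and 0 at 2-fold. Centred on polyadenylated controls, 0 were lower and 0 higher with both, 44 lower and 0 higher with shMMSET#2, and 0 lower and 2 higher with shMMSET#4. Those lower with shMMSET#2 numbered 7, 7, 14, 55, 17, 13, 9, 94, 50 and 5 under these settings in that order without the brightest decile, and those lower with shMMSET#4 numbered 1, 3, 11, 53, 11, 3, 0, 78, 50 and 0. Those higher with both numbered 0 with the brightest decile, without the 100 brightest and at 2-fold, and 2 with probe sets or several-symbol probe sets as the unit. With shMMSET#2 they numbered 3 with either of these units, and 0 without the 100 brightest and at 2-fold. With shMMSET#4 they numbered 2 with median scaling, either unit, spikes or the looser threshold, and 0 with the brightest decile, without the 100 brightest and at 2-fold. Of all genes, 12.9% were lower with both when centred on the brightest decile, 9.36% by neighbours and 3.87% by spikes. Counts with probe sets as the unit or with members left out change by construction, and otherwise the cause was not tested. The brightest probe set of each gene alone held 3.52%, 3.64% and 4.97% of the signal on the shMMSET#2, shMMSET#4 and shLuc arrays. Without _x_at and _s_at probe sets the shMMSET#2 log2 ratio was 0.018 for RPL14 and 0.50 for EIF3F, against negative values as reported, and the shMMSET#4 ratio of RPL35A was 0.0095 centred on polyadenylated controls. The other 134 alternative values of the list results stayed within 0.1 log2, 1.5-fold of the count or 1 percentage point. With 1 array per group, differences between arrays and between hairpins cannot be told apart, and saturation, scale and spike recovery limit what the brightest members show.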
